A study of Mus musculus with 16 samples.

Results

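The response to TGF-β1 was measured across genes in primary mouse lung fibroblasts that lack meflin. Meflin is a membrane-anchored protein of fibroblasts and mesenchymal progenitors, encoded by the gene Islr. By their labels, 8 of the 16 arrays of the series belong to this comparison, with 4 meflin knockout cultures given recombinant TGF-β1 and 4 given vehicle. The other 8 arrays hold wild type C57BL/6J cultures, 4 with TGF-β1 and 4 with vehicle, and were used to test where the knockout response differed. All cultures were fibroblasts released from lung tissue by enzymes, from mice aged 8 weeks and labelled female, and TGF-β1 was given at 5 ng/ml for 48 h. The knockout allele, the strain background of the knockout mice and the number of mice behind a culture are not given in the labels. The 4 cultures of a group are called independent experiments there, so the p-values below measure the spread between those cultures.

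TGF-β is a secreted cytokine that binds a pair of receptor kinases, which phosphorylate the transcription factors SMAD2 and SMAD3. In lung fibroblasts it is known for driving the change into myofibroblasts, cells that contract, deposit collagen-rich matrix and take part in scarring. Bone morphogenetic proteins (BMPs) belong to the same family of ligands but signal through SMAD1, SMAD5 and SMAD9. Contractile genes are also controlled by the serum response factor SRF and its actin-sensing partners of the MRTF family.

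Each value below is the log2 spot signal of a gene's brightest probe, after every array was shifted to the same 75th percentile. A gene "rose" or "fell" where limma's moderated test gave a Benjamini-Hochberg adjusted p under 0.05 over 15394 genes, and values in brackets after a gene are log2 differences, TGF-β1 minus vehicle, in knockout cells. Values said to be of wild type cells are the same difference there, and for each gene that has one the difference between the genotypes passed its own test, the interaction, unless an adjusted p says otherwise. Where a group had any array without signal well above background for a gene, only a bound is known, and it is given as "at least" a fold. Before the shift that percentile lay at 382.1 to 445.9 with TGF-β1 and at 469.6 to 518.9 with vehicle in knockout cells, and 31322 to 32465 and 33314 to 34642 probes were well above background. Arrays of the same group correlated with r of at least 0.99587 with TGF-β1 and 0.99653 with vehicle, and 93.5% of the variance among the 8 knockout arrays lay along a component that separated TGF-β1 from vehicle.

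The targeted gene came first. Islr read 1.68, 1.34, 1.41 and 1.37 with vehicle and 1.65, 1.77, 1.80 and 1.82 with TGF-β1 on the arrays labelled knockout, and none of these 8 arrays had signal well above background for it. Wild type cells read 10.88, 10.78, 10.87 and 10.75 with vehicle and 8.23, 8.35, 8.42 and 8.36 with TGF-β1. No knockout array reached the lowest wild type array, and the fitted log2 difference between knockout and wild type vehicle cultures was -9.37. No fold is given for TGF-β1 in knockout cells, where both groups lay at background. Of 16 fibroblast markers, all were well above background on every knockout array, among them Col1a1 and Col1a2.

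TGF-β1 changed most genes of knockout cells. Of 15394 genes tested, 12705 (82.5%) passed, of which 7176 rose (46.6% of all tested) and 5529 fell (35.9%). The median log2 difference over all genes was 0.10, and -0.01 with quantile normalization in place of the percentile shift, under which 6106 genes rose and 6450 fell. In the authors' deposited value table, which holds a part of these genes, it was -0.36. With bounds applied, 1437 genes rose at least 2-fold, 302 at least 4-fold and 31 at least 16-fold, while 1800 fell at least 2-fold, 610 at least 4-fold and 88 at least 16-fold. The groups of 4 arrays did not overlap for 11872 genes (77.1%). Of the genes that passed, 93 rose from a group with no array well above background and 519 fell to one. At this background a count of list members past the threshold says little on its own, so each list is given with its median too, to be read against 0.10. In bulk RNA, fewer cells of a type and less RNA per cell cannot be told apart.

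Contractile genes rose together and by the largest median of the 50 gene lists. Of 33 contractile proteins tested 31 rose, 1 fell and 1 did not pass, with a median log2 difference of 1.62 against 0.10 over all genes, and 1.45 against -0.01 with quantile normalization. Calponin 1, the smooth muscle protein encoded by Cnn1, read 12.02, 12.18, 12.13 and 12.21 with vehicle and 17.23, 17.17, 17.23 and 17.40 with TGF-β1. All 4 treated arrays stood far above all 4 vehicle arrays. The difference was 5.12 ± 0.05 (SE, n = 4 and 4), a 34.8-fold rise with adjusted p = 1.5e-18. Acta1, which encodes skeletal muscle actin, read 10.10, 10.17, 10.07 and 10.07 with vehicle and 14.45, 14.34, 14.44 and 14.46 with TGF-β1. Its groups did not overlap, and the treated array of replicate 2 was the lowest of that group. It rose by 4.32 ± 0.04 (adjusted p = 4.06e-19). The cardiac actin gene Actc1 read 11.88, 11.67, 11.76 and 11.70 with vehicle and 15.81, 15.80, 15.81 and 15.85 with TGF-β1, again without overlap, and rose 16.7-fold. Smooth muscle actin, Acta2, the usual marker of myofibroblasts, was already bright with vehicle at 15.26, 15.32, 15.35 and 15.40 and reached 17.93, 17.90, 17.94 and 18.07 with TGF-β1. These groups did not overlap either, and the rise was 6.18-fold, a log2 difference of 2.63 where its other probes gave 2.82 to 4.17. The smooth muscle myosin heavy chain gene Myh11 (3.63), the enteric actin gene Actg2 (3.38), the intermediate filament gene Des (2.75), the tropomyosin genes Tpm1 (2.30) and Tpm2 (2.75) and the actin filament nucleator Lmod1 (at least 23.2-fold higher) also rose. The member that fell was Synpo2 (at least 3.91-fold lower), which encodes an actin-binding protein, and Fhl1 (0.08, adjusted p 0.0676) did not pass but fell by 0.52 with quantile normalization.

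The SRF and mechanosensing genes rose with them, 22 of 24, with 1 fall and a median of 0.72 (0.39 with quantile normalization). Ankrd1, a titin-associated transcriptional cofactor and a common readout of YAP and TEAD activity, read 9.74, 9.84, 9.96 and 9.88 with vehicle and 14.93, 14.79, 14.98 and 14.84 with TGF-β1. The lowest treated array stood well above the highest vehicle array, and Ankrd1 rose 32.6-fold, by 5.03 ± 0.06 (adjusted p = 5.56e-18). Srf itself read 10.91, 10.88, 10.92 and 10.89 with vehicle and 11.87, 11.80, 11.91 and 11.83 with TGF-β1, a smaller step of 0.95 ± 0.04 whose groups still did not overlap. The SRF cofactor myocardin, Myocd (at least 10.2-fold higher), the LIM proteins Csrp2 (3.06) and Fhl2 (2.40), and the secreted CCN proteins Ccn1 (1.47) and Ccn2 (2.41) rose as well. The fall was that of the cofactor Mrtfb (-0.64), whose other probes gave -0.96 to 1.44, and the YAP partner Wwtr1 (0.08, adjusted p 0.168) did not pass but fell by 0.37 with quantile normalization.

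The promoters of these genes were read for the SRF site because many members moved together. The CArG box, the site that SRF binds, was found in the 250 bases before the start of 6 of 29 contractile genes with a RefSeq promoter (20.7%) and of 2 of 18 SRF and mechanosensing genes (11.1%). Over all 12174 tested genes with a promoter the share was 1.23%. Genes that rose at least 4-fold held it in 13 of 227 promoters (5.73%), and those that fell at least 4-fold in 4 of 445 (0.899%). The contractile genes with a match were Acta1, Actc1, Cnn2, Fhl1, Myl9 and Vcl, and the other list gave Srf and Fhl2. A match is a string of letters, not a measured binding site. The 120 bases before the start of Acta1 (chr8:123894776-123894895 on the minus strand), Actc1 (chr2:114052876-114052995 on the minus strand) and Srf (chr17:46556163-46556282 on the minus strand) are shown from RefSeq on GRCm38.p6, with the CArG boxes in capitals.
Acta1: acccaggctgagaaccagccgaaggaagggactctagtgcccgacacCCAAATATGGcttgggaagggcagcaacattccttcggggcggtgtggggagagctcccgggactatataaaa
Actc1: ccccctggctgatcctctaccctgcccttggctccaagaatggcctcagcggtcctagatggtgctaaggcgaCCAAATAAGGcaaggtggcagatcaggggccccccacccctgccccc
Srf: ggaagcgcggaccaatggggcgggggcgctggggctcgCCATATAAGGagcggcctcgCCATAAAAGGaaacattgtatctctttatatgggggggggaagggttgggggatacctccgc
The box began 73 bases before the start of Acta1 and 47 before that of Actc1, and Srf carried 2 of them, which began 82 and 62 bases before its start. The string GGAATG, the core of the site of TEAD factors, lay in 11 contractile promoters (37.9%) and 9 of the SRF and mechanosensing list (50%) against 10.9% of all, read on both strands. Both lists were written to hold genes known to be under SRF or TEAD control, so their shares of these sites were partly set by that choice. The palindrome GTCTAGAC, which SMAD3 and SMAD4 can bind, was in 0.214% of all promoters and in 0 of those of genes that rose at least 4-fold.

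Among the genes of the TGF-β pathway itself, ligands and their latency proteins were mostly higher with TGF-β1. Of 19 tested 13 rose and 6 fell, with a median of 0.83 in knockout cells and 0.31 in wild type cells. Inhba, which encodes the subunit of activin A, read 12.28, 12.13, 12.08 and 12.15 with vehicle and 15.13, 14.94, 15.20 and 14.96 with TGF-β1. All treated arrays stood above all vehicle arrays, and the rise was 7.46-fold (adjusted p = 1.36e-15). Tgfb1 itself read 9.44, 9.51, 9.36 and 9.41 with vehicle and 10.06, 10.07, 10.30 and 10.07 with TGF-β1, with replicate 3 the highest of the treated arrays and no overlap. It rose by 0.70 ± 0.08 in knockout cells and fell by 0.41 in wild type cells, where the arrays read 9.56, 9.98, 9.76 and 9.65 with vehicle and 9.30, 9.29, 9.43 and 9.31 with TGF-β1, and the genotypes differed (interaction adjusted p = 9.15e-07). The other ligands Tgfb2 (1.61) and Tgfb3 (1.62), the latent TGF-β binding proteins Ltbp1 (1.14) and Ltbp2 (1.47), and the activin antagonists Fst (1.71) and Fstl3 (2.67) rose. The ones that fell included Inhbb (-1.86), the integrin subunit gene Itgb6 (at least 1.58-fold lower), whose product releases latent TGF-β, and Nrros (-2.15), which tethers it on myeloid cells.

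Receptors moved less and in both directions, with 7 of 13 higher, 5 lower and a median of 0.17. The type I receptor gene Tgfbr1 (0.17) passed narrowly (adjusted p = 0.0421) and did not pass with quantile normalization (0.03), nor without TGF-β1 replicate 1, 2 or 3 or vehicle replicate 3 or 4 (0.12 to 0.17). The type II receptor gene Tgfbr2 (-0.19) fell slightly. The co-receptor betaglycan, Tgfbr3, read 12.10, 12.27, 12.19 and 12.20 with vehicle and 9.46, 9.54, 9.33 and 9.42 with TGF-β1. Its groups were far apart, and it fell by 2.75 on the log2 scale, against -0.65 in wild type cells. Cd109 (2.46), a co-receptor that restrains signalling, and the decoy receptor Bambi (1.01) rose, while the activin receptor genes Acvr1b (-1.13) and Acvr2b (-1.04) fell. Among 22 SMADs and intracellular inhibitors 13 rose, 5 fell and 4 did not pass (10 and 8 with quantile normalization), with a median of 0.22 that was -0.07 over the members in the authors' deposited value table. Pmepa1, a feedback inhibitor that holds SMAD2 and SMAD3 away from the receptor, read 13.29, 13.35, 13.33 and 13.29 with vehicle and 15.04, 15.06, 15.05 and 15.11 with TGF-β1, with no overlap and a rise of 1.75 ± 0.03. The inhibitors Smad7 (0.98), Skil (1.14), Ldlrad4 (1.34) and Smurf1 (0.90) rose with it. Smad3 went the other way, from 12.34, 12.44, 12.40 and 12.48 to 11.70, 11.71, 11.77 and 11.70, and fell by 0.69 without overlap. Smad9 (-2.29) of the BMP branch fell further, and the SMAD exporter Ranbp3l (at least 9.6-fold lower) reached background.

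**Figure D1:**
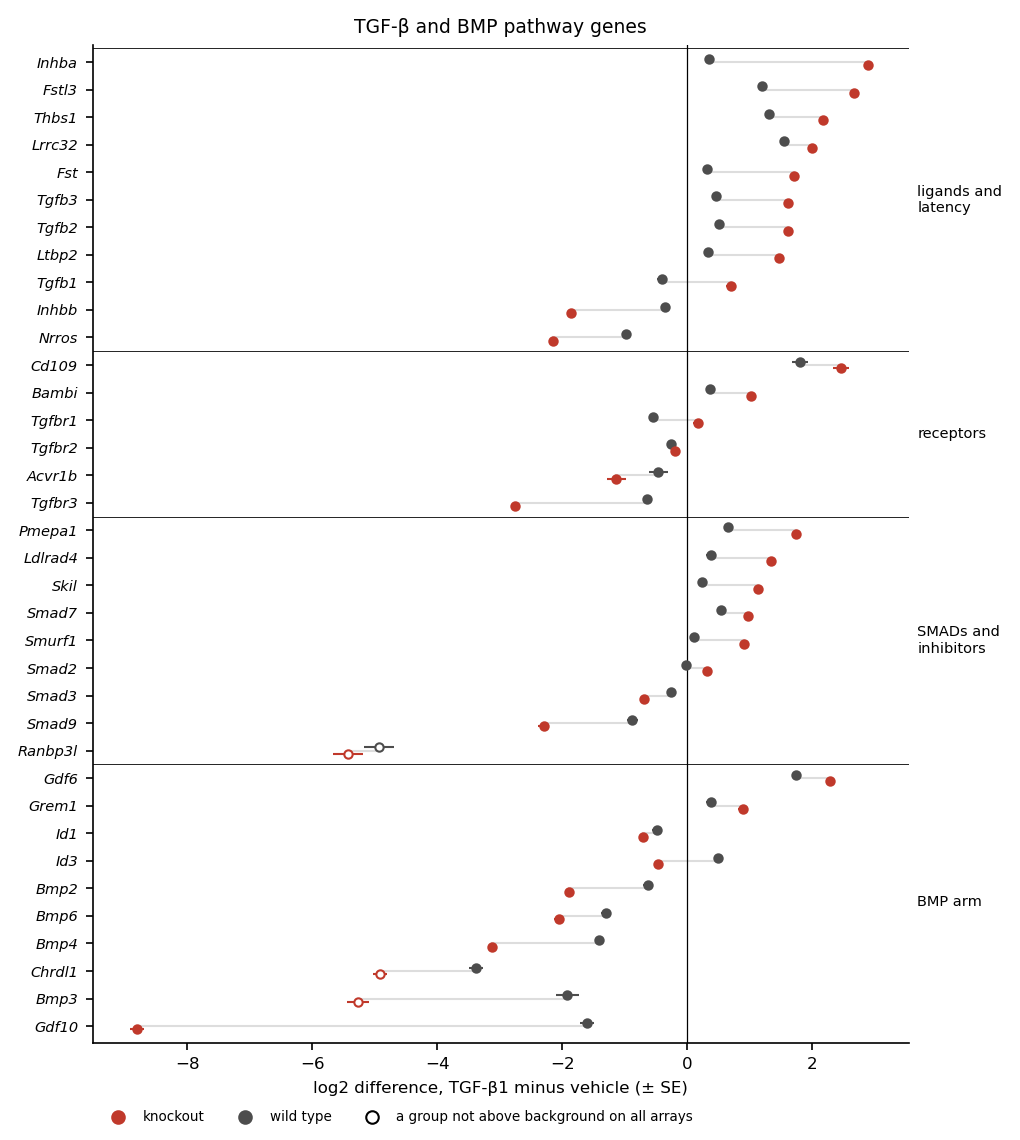
Log2 difference, TGF-β1 minus vehicle, of TGF-β and BMP pathway genes in knockout (red) and wild type (grey) cells, with standard errors of the limma fit over 16 arrays, and open symbols where some array of a group lacked signal above background. Knockout values lie further from 0 than wild type values for most of these genes, from Inhba (2.90 against 0.34) to Gdf10 (-8.81 against -1.61), and Tgfb1 and Tgfbr1 lie on opposite sides of 0.

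Genes of the BMP arm, ligands and antagonists alike, fell more often than they rose. Of 15 BMP and growth differentiation factor ligands tested 10 fell, 3 rose and 2 did not pass, with a median of -0.69 (-0.32 in wild type cells). The largest measured fall of any gene in knockout cells was that of Gdf10, a ligand of this family. Gdf10 read 13.48, 13.60, 13.57 and 13.51 with vehicle and 4.84, 5.08, 4.35 and 4.66 with TGF-β1. All 4 treated arrays were dim and far below every other array, and they spread more than the vehicle arrays. Gdf10 fell by 8.81 on the log2 scale, a 448-fold fall (adjusted p = 1.39e-17). The lowest signal counted as well above background on the treated arrays was 3.92 to 4.10, so this fold depends on the background correction. Wild type Gdf10 went from 13.41, 13.21, 13.37 and 13.47 to 11.85, 11.68, 11.71 and 11.78, a difference of -1.61. Bmp4 read 12.81, 13.10, 13.11 and 13.11 with vehicle and 9.84, 9.98, 9.96 and 9.88 with TGF-β1, with replicate 1 the lowest vehicle array and no overlap, and fell 8.67-fold. Bmp2 (-1.89), Bmp6 (-2.05) and Bmp3 (at least 30.6-fold lower) fell too, whereas Gdf6 (2.29) and Gdf11 (1.03) rose. Of 18 receptors, antagonists and targets 10 fell and 4 rose, with a median of -0.34. The antagonist Chrdl1 (at least 30.0-fold lower) and the BMP co-receptor Rgma (-2.69), whose other probe gave 0.47, fell, the antagonist Grem1 (0.89) rose, and the target genes Id1 (-0.70), Id2 (-0.71), Id3 (-0.47) and Id4 (-1.03) were all lower.

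Collagen genes did not move as a block. Of 28 chains 14 rose, 13 fell and 1 did not pass, and their median was 0.25, or -0.14 with quantile normalization, under which 13 rose and 15 fell. Col1a1, the main chain of scar collagen, read 15.97, 16.04, 16.05 and 15.96 with vehicle and 16.68, 16.72, 16.74 and 16.83 with TGF-β1. It was bright in both groups, which did not overlap, and rose by 0.74 ± 0.04, next to 0.68 in wild type cells, a difference that did not pass (interaction adjusted p = 0.397). Col3a1 went down from 16.10, 16.10, 16.14 and 15.99 to 15.55, 15.59, 15.45 and 15.60, again without overlap. The fall was 0.53 on the log2 scale, while Col3a1 rose by 0.30 in wild type cells, and the 2 responses differed (interaction adjusted p = 1.39e-08). Col7a1, whose product anchors epithelium to the matrix beneath it, read 9.73, 9.85, 9.93 and 9.80 with vehicle and 12.55, 12.45, 12.67 and 12.62 with TGF-β1 and rose 6.71-fold with no overlap, against 0.89 in wild type cells. The fibril collagen genes Col11a1 (3.92) and Col5a1 (1.11), the cartilage collagen Col10a1 (at least 7.85-fold higher), the fibril-associated Col12a1 (1.90) and the basement membrane chains Col4a1 (1.86) and Col4a2 (1.26) rose. The type VI chains split, with Col6a3 (1.21) up and Col6a1 (-2.30) and Col6a2 (-2.08) down, and Col13a1 (at least 17.3-fold lower) fell to background. Col28a1 (at least 27.6-fold lower) and Col23a1 (at least 7.85-fold lower) fell too, with 2 and 3 of 4 treated arrays above background. Enzymes that modify and crosslink collagen were more uniform, with 31 of 37 higher, 4 lower and a median of 0.89 (0.57 with quantile normalization). Among them were the prolyl hydroxylase subunit P4ha2 (2.76), the lysyl oxidases Loxl2 (1.94), Loxl3 (2.51) and Loxl4 (2.00), the procollagen proteinase Tll1 (3.37), 1.25 by its other probe, and Creb3l2 (1.95), a transcription factor of the secretory pathway.

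Of 16 elastic fibre genes 6 rose and 7 fell, with a median of -0.06. With quantile normalization 4 rose, 11 fell and the median was -0.32, and over the members in the authors' deposited value table it was -1.75. Elastin, Eln, read 11.13, 10.88, 10.86 and 10.77 with vehicle and 11.38, 11.45, 11.21 and 11.43 with TGF-β1 in knockout cells. The groups were close but did not overlap, and the rise was 0.46 ± 0.08 (adjusted p = 0.000112), and 1.53 by its other probe. In wild type cells Eln fell from 10.65, 10.60, 10.87 and 10.89 to 9.10, 9.14, 9.03 and 9.03. The responses were opposite and differed by 2.13 ± 0.12 (interaction adjusted p = 1.06e-09). Tnxb (-4.66), Efemp1 (-3.76) and Fbln1 (-2.81) fell in knockout cells. The matricellular list also split, 12 up and 11 down of 24, and its median turned from 0.12 to -0.41 with quantile normalization. Periostin (2.62 for Postn) and Cthrc1 (2.57), both found around scar-forming fibroblasts, rose, as did Tnc (1.81) and Thbs1 (2.17), while Smoc2 (-2.95), Matn2 (-2.22) and Sparcl1 (-2.16) fell.

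The proteoglycan list held both large rises and large falls. Has2, the enzyme that makes high-molecular-weight hyaluronan, read 8.95, 8.995, 8.84 and 8.88 with vehicle and 13.56, 13.51, 13.46 and 13.48 with TGF-β1, a wide gap between tight groups. It rose 24-fold, by 4.59 ± 0.05 (adjusted p = 2.35e-18), against 1.79 in wild type cells. Aggrecan, Acan, a cartilage proteoglycan, was not well above background on the vehicle arrays, at 1.60, 1.27, 1.34 and 1.33, and read 8.02, 7.76, 8.02 and 7.84 with TGF-β1. The rise was at least 18.4-fold. Falls were found among the small leucine-rich proteoglycans, which bind collagen fibrils, with Fmod (-4.06), Prelp (-3.84), Podn (-3.09), Ogn (-2.35), Lum (-2.09) and Dcn (-1.52), so that 18 of 32 members fell and 12 rose, with a median of -0.31. Among integrins 9 of 18 rose and 5 fell, with a median of 0.25. The fibronectin receptor subunit Itga5 (3.27) and the collagen receptor subunit Itga11 (2.41) rose most, and Itgb2 (-1.37) and Itga4 (-1.11), carried by leukocytes, fell.

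Matrix proteases divided as well. Of 20 matrix metalloproteinases and their inhibitors 9 rose and 9 fell, with a median of 0.02 that turned to -0.33 within slide 2 and -1.41 in the authors' deposited value table. Stromelysin 1, Mmp3, read 15.59, 15.51, 15.49 and 15.53 with vehicle and 10.995, 11.05, 10.91 and 10.97 with TGF-β1, with little spread inside either group. It fell 23.4-fold (adjusted p = 3.3e-19), against -1.33 in wild type cells, a difference of -3.22 ± 0.06 (interaction adjusted p = 9.3e-15). Its neighbours on the chromosome went both ways, with Mmp10 (2.66) and Mmp13 (0.57) up and Mmp8 (-3.08) and Mmp12 (-1.78) down. The ADAMTS and ADAM list had 19 falls and 9 rises of 31, a median of -0.67 and -0.03 in wild type cells. Adamts15, a secreted protease that cleaves aggrecan and versican, read 13.21, 13.27, 13.32 and 13.36 with vehicle and 5.53, 6.22, 5.68 and 6.28 with TGF-β1. The treated arrays lay far below all others, with replicates 1 and 3 lower than 2 and 4. The fall was 164-fold (adjusted p = 3.13e-16), whereas wild type cells went from 13.03, 13.03, 12.97 and 12.88 to 12.43, 12.48, 12.49 and 12.55, a fall of 0.49. Adam12 (3.11), Adam19 (2.07) and Adamts6 (2.63) rose. In the plasminogen and serpin list 4 of 15 rose and 10 fell (median -0.45), with the urokinase receptor Plaur (1.54) up and the tissue activator Plat (-1.43) down.

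The genes with the largest rises had varied roles. Klhl30, a kelch-repeat gene, read 5.93, 5.99, 6.42 and 6.19 with vehicle and 11.52, 11.46, 11.59 and 11.46 with TGF-β1, with no overlap, and rose 41.5-fold. C1qtnf3, which encodes a secreted protein of the C1q and tumour necrosis factor family, read 5.52, 5.43, 5.31 and 5.12 with vehicle and 10.72, 10.68, 10.70 and 10.67 with TGF-β1. Its treated arrays were nearly equal, and it rose 40.6-fold against a difference of 1.89 in wild type cells, while other probes of the gene gave 5.93 to 7.21. The keratin gene Krt20 (at least 47.3-fold higher) rose from background. The granule protease genes Mcpt8 (at least 62.1-fold higher) and Gzme (at least 42.2-fold higher), the subunit gene Kcnmb1 (at least 41.7-fold higher) of the calcium-activated potassium channel and Acsbg1 (at least 35.9-fold higher), an acyl-CoA synthetase, rose from vehicle groups in which 1 to 3 of 4 arrays were above background. Rises were also measured for the serotonin receptor Htr2b (4.58), the decoy receptor osteoprotegerin (4.58 for Tnfrsf11b), arginase 1 (4.70 for Arg1), the hormone gene Erfe (4.32) and the branched-chain aminotransferase Bcat1 (4.09). The other probes of Bcat1 gave 2.13 to 3.80.

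**Figure D2:**
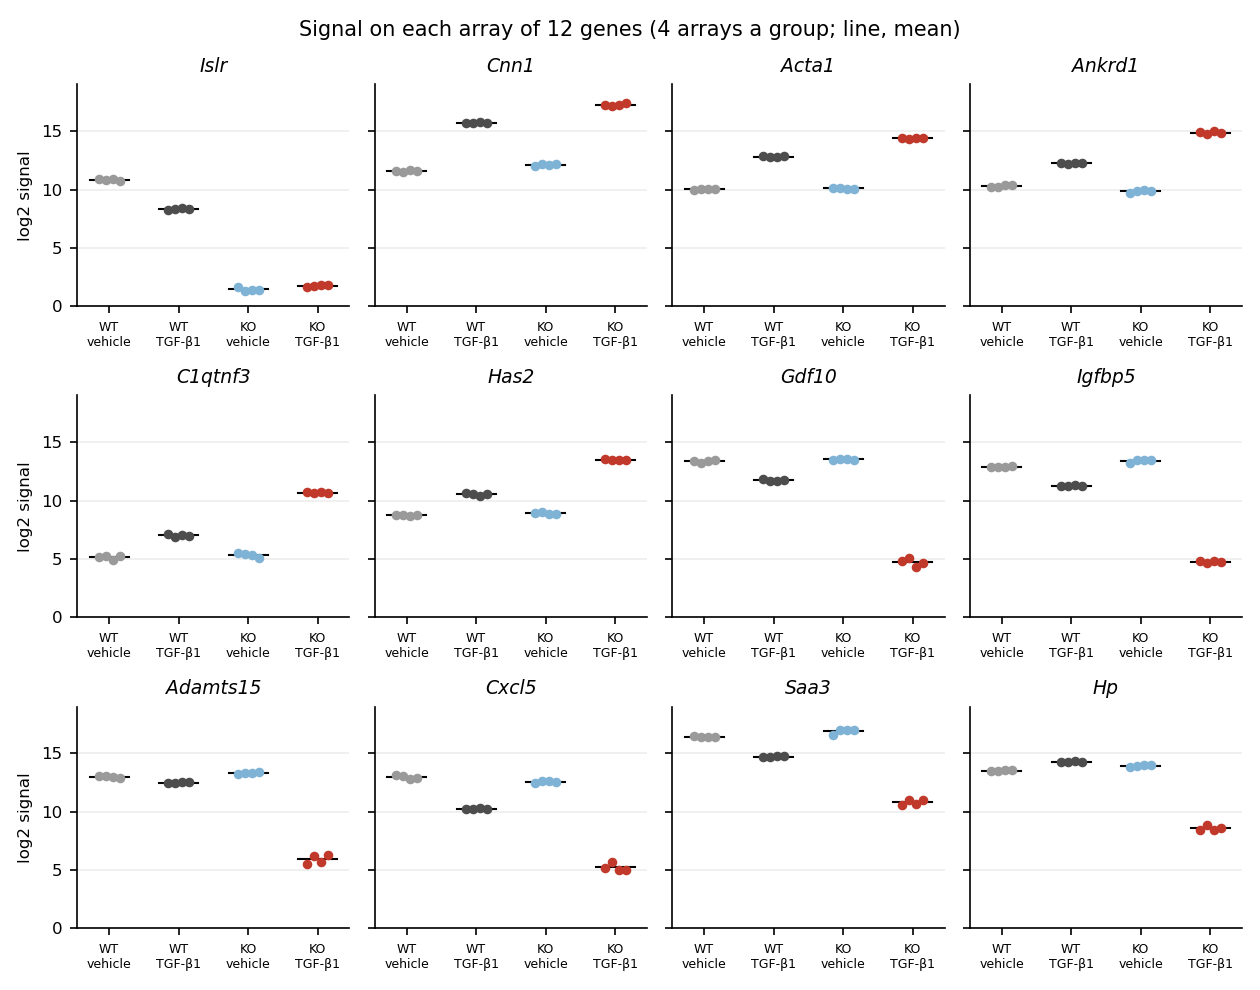
Log2 signal of 12 genes on each of the 16 arrays, 4 a group, with the mean of each group as a line. Islr is near the bottom of the scale in both knockout groups, the knockout TGF-β1 arrays stand highest for Cnn1, Acta1, Ankrd1, C1qtnf3 and Has2, and they stand lowest for Gdf10, Igfbp5, Adamts15, Cxcl5, Saa3 and Hp.

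Next to Gdf10, the deepest measured fall was that of Igfbp5, a secreted protein that binds insulin-like growth factors. Igfbp5 read 13.24, 13.45, 13.47 and 13.51 with vehicle and 4.86, 4.68, 4.79 and 4.74 with TGF-β1. The 4 treated arrays were close together and far below the vehicle arrays. It fell by 8.65 on the log2 scale, a 401-fold fall (adjusted p = 1.88e-20). Its treated arrays were near background too. With normexp background correction the less deep of the falls of Gdf10 and Igfbp5 was -6.61. The wild type difference was -1.65, from 12.88, 12.88, 12.90 and 12.96 to 11.22, 11.24, 11.31 and 11.27. In the same axis Igfbp4 (-4.12) and Igfbp6 (-1.13) fell, while the receptor Igf1r (1.39), whose other probe gave -0.35, the protease Pappa (0.90) and Htra1 (1.61) rose, for 8 rises and 10 falls among 21, with a median of -0.09 (0.24 over the members in the authors' deposited value table). Sfrp2, a secreted Wnt antagonist, read 11.75, 11.71, 11.66 and 11.70 with vehicle and 3.98, 3.05, 4.26 and 3.82 with TGF-β1, where 2 of 4 arrays were not well above background. The fall was at least 196-fold. Of 36 Wnt pathway genes 21 fell and 12 rose, with a median of -0.53 that was -0.09 with normexp background correction. Falls included those of the Wnt amplifiers Rspo1 (-3.17) and Rspo2 (at least 5.05-fold lower) and of the target Axin2 (at least 3.27-fold lower). Wnt10b (at least 7.94-fold higher), Wnt9a (1.34) and Dkk2 (2.49) rose. Other deep falls were those of the cartilage-associated Scrg1 (at least 90.2-fold lower), the sulphated steroid transporter Slc10a6 (at least 55.7-fold lower), the lipid transporter Abca8a (at least 65.2-fold lower), the cytochrome Cyp2s1 (-5.97), the adhesion gene Chl1 (at least 44.5-fold lower) and autotaxin (-5.32 for Enpp2), which makes lysophosphatidic acid. The gap junction gene Gja5 (-5.41) fell by its brightest probe, but its other probe gave -0.23.

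Inflammatory genes fell more often than they rose in knockout cells. Of 25 chemokine genes 18 fell, 6 rose and 1 did not pass, with a median of -2.09 (-1.64 with members at background held at their bound) and -0.97 in wild type cells. With normexp background correction the median in knockout cells was -0.76. The neutrophil attractant Cxcl5 read 12.43, 12.60, 12.66 and 12.57 with vehicle and 5.17, 5.64, 5.02 and 5.03 with TGF-β1. Treated arrays were close to background and far below the vehicle arrays, and Cxcl5 fell 163-fold (adjusted p = 8.71e-17), against -2.72 in wild type cells. Cxcl1, of the same function, read 11.55, 11.67, 11.69 and 11.71 with vehicle and 5.16, 4.51, 5.05 and 5.14 with TGF-β1, with replicate 2 the lowest treated array and no overlap. It fell 103-fold. The eosinophil attractant Ccl11 (at least 18.9-fold lower), the B cell attractant Cxcl13 (at least 20.3-fold lower), the T cell attractants Ccl19 (at least 5.65-fold lower) and Ccl21a (at least 26.8-fold lower), and the monocyte attractants Ccl2 (-2.85), Ccl7 (-2.75) and Ccl8 (-3.03) fell. Rises were those of Cxcl12 (2.36) and Cxcl14 (2.88), whose other probes gave 0.25 and 1.19, of Ccl20 (0.64), Ccl25 (0.57), whose other probes gave -0.13 to 0.42, Ackr2 (0.66) and Ccl17 (at least 15.5-fold higher). The acute phase gene Saa3 read 16.57, 16.99, 16.995 and 16.95 with vehicle and 10.55, 10.97, 10.65 and 11.03 with TGF-β1. Replicate 1 was the lowest vehicle array and still far above every treated array, and Saa3 fell 67.4-fold.

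Complement genes fell nearly throughout, with 19 falls and 1 rise among 21 and a median of -2.21 (-0.76 in wild type cells). The central component C3 read 16.03, 16.22, 16.27 and 16.22 with vehicle and 11.44, 11.58, 11.32 and 11.60 with TGF-β1. Its groups were far apart, and it fell 26-fold (adjusted p = 2.3e-17), against -2.19 in wild type cells. C4b (-4.81), Cfb (-4.63), C1ra (-3.49) and C1s1 (-2.90) fell with it, and the member that rose was the membrane inhibitor Cd59a (0.53). The interferon and antigen presentation list had 35 falls and 2 rises of 40, with a median of -1.37. Oas2 (at least 12.8-fold lower), Ifit3 (-3.80), Ifit1 (-2.54), Irf7 (-1.92) and the class I gene H2-D1 (-1.78) fell. Interleukins and their receptors were more divided, with a median of -0.83. Of 40 tested 27 fell, among them the alarmins Il33 (-3.43) and Tslp (-3.63), the receptors Lifr (-3.53) and Il1r1 (-2.10) and the lipopolysaccharide receptor Tlr4 (-1.71). Another 11 rose, among them Ptgs2 (2.81), Csf1 (1.69) and Tnfrsf11b (4.58), the largest change of the list. The cytokine genes Il11, Lif and Il1b also rose and are given further on.

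Markers of other cell types were summed on each array. The summed linear signal of 18 of 20 macrophage and leukocyte markers was 83894 to 92493 on the treated knockout arrays and 159397 to 166073 on the vehicle arrays, and 14 of the 18 fell (median log2 difference -1.04). Among them were Cd68 (-2.34), Mrc1 (-2.67) and Ptprc (-1.35), while Marco (1.93) rose and Cd79a and Ms4a1 were not above background in either group. Sums of 15 endothelial markers were 5853 to 6260 and 11828 to 12240, with 14 falls (median -1.07), among them Vwf (-2.50) and Cldn5 (-2.16). Sums of 9 of 10 mesothelial markers were 16532 to 18300 and 31144 to 31341, with 6 falls and a median of -0.64. Of 15 epithelial markers 8 were not above background with TGF-β1 and 4 with vehicle, and the sums over 12 were 12575 to 13891 and 9052 to 9405, with Sftpc (at least 17.2-fold lower) and Sftpb (at least 1.46-fold lower) falling to background, Krt8 (0.77) and Krt18 (0.94) rising and a median of 0.13. Fibroblast markers summed to 716717 to 772197 and 689696 to 729751, with 10 rises and 6 falls that turned to 6 and 7, and a median that turned from 0.23 to -0.06, with quantile normalization. Pericyte and smooth muscle markers summed to 44582 to 46569 and 36884 to 38370, with 8 rises and 5 falls (7 and 6, and a median turned from 0.30 to -0.02, with quantile normalization). The part of these cells in the falls of chemokine, complement and interferon genes and in the rises of contractile genes was not tested.

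Promoters of lists in which most genes fell were also read. A nuclear factor kappa B site lay in 6 of 18 chemokine promoters (33.3%) and in 4.35% of all, also in 5 of 29 promoters of contractile genes (17.2%), while genes that fell at least 4-fold had it in 5.39% and genes that rose at least 4-fold in 4.41%. The chemokine genes with a match were Ccl9, Ccl20, Cxcl1, Cxcl2, Cxcl10 and Ackr2. Among them Ccl20 (0.64) and Ackr2 (0.66) rose, and the others fell, Ccl9 by little (-0.65). The core of the interferon-stimulated response element, a pair of GAAA strings with any 2 bases between them, was found in 13 of 33 interferon list promoters (39.4%) and in 2.74% of all, on either strand. That list was written to hold interferon-stimulated genes, so its share was partly set by that choice. Bases before the start of the neighbouring genes Cxcl1 (chr5:90891125-90891244 on the plus strand) and Cxcl2 (chr5:90903779-90903898 on the plus strand) and of Cxcl10 (chr5:92348890-92349069 on the minus strand) are shown from RefSeq on GRCm38.p6 with the sites in capitals, because these genes fell together and share the element.
Cxcl1: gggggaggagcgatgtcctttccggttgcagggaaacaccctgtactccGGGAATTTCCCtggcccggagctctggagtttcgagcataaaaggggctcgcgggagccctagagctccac
Cxcl2: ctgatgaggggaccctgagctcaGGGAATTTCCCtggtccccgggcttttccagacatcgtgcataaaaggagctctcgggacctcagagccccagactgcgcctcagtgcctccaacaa
Cxcl10: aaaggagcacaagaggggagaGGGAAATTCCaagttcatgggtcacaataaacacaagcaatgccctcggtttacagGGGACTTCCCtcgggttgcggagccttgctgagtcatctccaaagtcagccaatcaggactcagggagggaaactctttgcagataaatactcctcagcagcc
The capitals of Cxcl1 and of Cxcl2 each hold 2 overlapping matches, and Cxcl10 holds 2 that lie apart. Cxcl10, which encodes an attractant of T cells, read 10.62, 10.54, 10.56 and 10.64 with vehicle and 6.92, 7.21, 7.22 and 6.75 with TGF-β1, without overlap, and fell 11.8-fold. Cxcl2 was not well above background with TGF-β1, and its fall was at least 1.22-fold. It did not pass with normexp background correction (-0.13, adjusted p = 0.0946) or within slide 2 (-1.43, adjusted p = 0.116).

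Genes for making and charging amino acids rose. Of 43 genes for amino acid synthesis, uptake and targets of the transcription factor ATF4 34 rose and 8 fell, with a median of 0.80 (0.46 in wild type cells). All 20 cytosolic aminoacyl-tRNA synthetases tested rose, with a median of 1.27, and did so with quantile normalization too. Asparagine synthetase, Asns, read 12.62, 12.52, 12.73 and 12.54 with vehicle and 15.03, 15.04, 15.05 and 15.10 with TGF-β1. The treated arrays differed little among themselves and did not overlap the vehicle arrays, and the rise was 5.47-fold (adjusted p = 3.08e-15). Aars, the alanyl-tRNA synthetase, read 12.38, 12.45, 12.50 and 12.53 with vehicle and 13.74, 13.75, 13.85 and 13.89 with TGF-β1, also without overlap, and rose 2.54-fold. The serine and one-carbon enzymes Shmt2 (2.59), Mthfd2 (2.36), Psph (2.11), Psat1 (1.97) and Phgdh (1.56), the proline enzyme Aldh18a1 (1.97) and the arginine transporter Slc7a1 (2.05) rose, as did Atf4 (0.69) itself. The cystine transporter Slc7a11 went from 8.08, 8.03, 8.12 and 8.15 to 7.86, 7.66, 7.93 and 7.84, a small fall of 0.27 without overlap, and its other probe gave -0.82. Atf3 (-2.37) and glutamine synthetase (-1.73 for Glul) fell further.

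The string TGATGNAA, which ATF4 and its CEBP partners bind, was in 6 of 33 promoters of the amino acid list (18.2%) and 3 of 13 of the synthetases (23.1%), against 2.17% of all promoters, on either strand. The genes with it were Atf3, Chac1, Nupr1, Asns, Got1 and Slc7a11, and Aars, Gars and Tars. The amino acid list was written to include targets of ATF4, so its share was partly set by that choice. Genes that rose at least 4-fold, which were chosen by their values, held it in 2.64%. The 120 bases before Asns (chr6:7693210-7693329 on the minus strand), Aars (chr8:111033722-111033841 on the plus strand) and Slc7a11 (chr3:50443614-50443733 on the minus strand) are shown with the string in capitals on either strand, from RefSeq on GRCm38.p6, because Asns and Aars rose and Slc7a11 fell although all 3 carry it.
Asns: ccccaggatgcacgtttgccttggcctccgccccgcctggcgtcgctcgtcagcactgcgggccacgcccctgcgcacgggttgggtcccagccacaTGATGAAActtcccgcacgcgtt
Aars: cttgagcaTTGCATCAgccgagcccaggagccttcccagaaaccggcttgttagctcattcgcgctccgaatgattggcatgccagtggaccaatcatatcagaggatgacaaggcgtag
Slc7a11: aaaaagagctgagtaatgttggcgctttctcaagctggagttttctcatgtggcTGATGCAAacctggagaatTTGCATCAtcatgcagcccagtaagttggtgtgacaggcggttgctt
Slc7a11 held 2 matches.

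Genes of glycolysis rose more often than they fell. Of 34 glycolysis and lactate export genes 23 rose and 10 fell, with a median of 1.16 (0.80 with quantile normalization). The lactate exporter Slc16a3 read 11.76, 11.93, 11.91 and 11.96 with vehicle and 15.34, 15.41, 15.45 and 15.45 with TGF-β1, with no overlap, and rose 11.5-fold. The hexokinases Hk1 (1.52) and Hk2 (2.27), the phosphofructokinases Pfkl (2.24) and Pfkp (1.70), the glucose transporter Slc2a1 (1.23) and Hif1a (1.43), the factor of the oxygen response, rose, and Pdk4 (-2.17) and Ldhb (-1.18) fell. Respiratory chain subunits rose in 72 of 74 with a median of 0.49, but with quantile normalization 32 rose, 28 fell and the median was 0.01. Cytosolic ribosomal proteins rose in 75 of 76 with a median of 0.47, and with quantile normalization turned to 18 rises, 40 falls and a median of -0.09, so no direction is given for either of these bright groups. Endoplasmic reticulum chaperones rose in 24 of 29 with a median of 0.52, and Pdia5 (1.44), Manf (1.06) and Hspa5 (0.76) were among them. With quantile normalization 17 of these chaperone genes rose, 8 fell and the median was 0.17, so this rise depends in part on the scaling. Cholesterol and fatty acid synthesis genes gave 13 rises and 10 falls of 33 and turned to 4 and 19 with quantile normalization, with a median that turned from 0.04 to -0.23. In wild type cells 21 of them fell, against 27.3% of all genes. By the interaction 24 had a more positive response in knockout cells, against 31.7% of all genes. That count was not made with quantile normalization, under which the positive share of all interactions that passed went from 54.5% to 43.6%. The sterol enzyme genes Dhcr7 (-0.79) and Tm7sf2 (-1.38) fell. Lysosomal genes fell in 28 of 41 (median -0.34), among them the cathepsin Ctsk (-1.42) and the acid lipase Lipa (-1.64). The superoxide-making oxidase Nox4 (1.82) rose, and the glutathione transferases Gstt1 (-3.52) and Gstm1 (-2.93), the extracellular superoxide dismutase Sod3 (-2.31) and the mitochondrial one Sod2 (-1.39) fell, within a list of 11 rises and 16 falls (median -0.06). With quantile normalization that list gave 8 rises, 22 falls and a median of -0.39, and its median in the authors' deposited value table was -1.34. Cytochrome P450, dehydrogenase and carboxylesterase genes fell in 30 of 38 with a median of -1.68 (-1.44 with bounds), with Fmo2 (-5.60), Adh1 (-4.03), Aldh1a1 (-2.85) and Ces1d (at least 52-fold lower) as examples. The median of that list was -0.76 with normexp background correction.

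**Figure D3:**
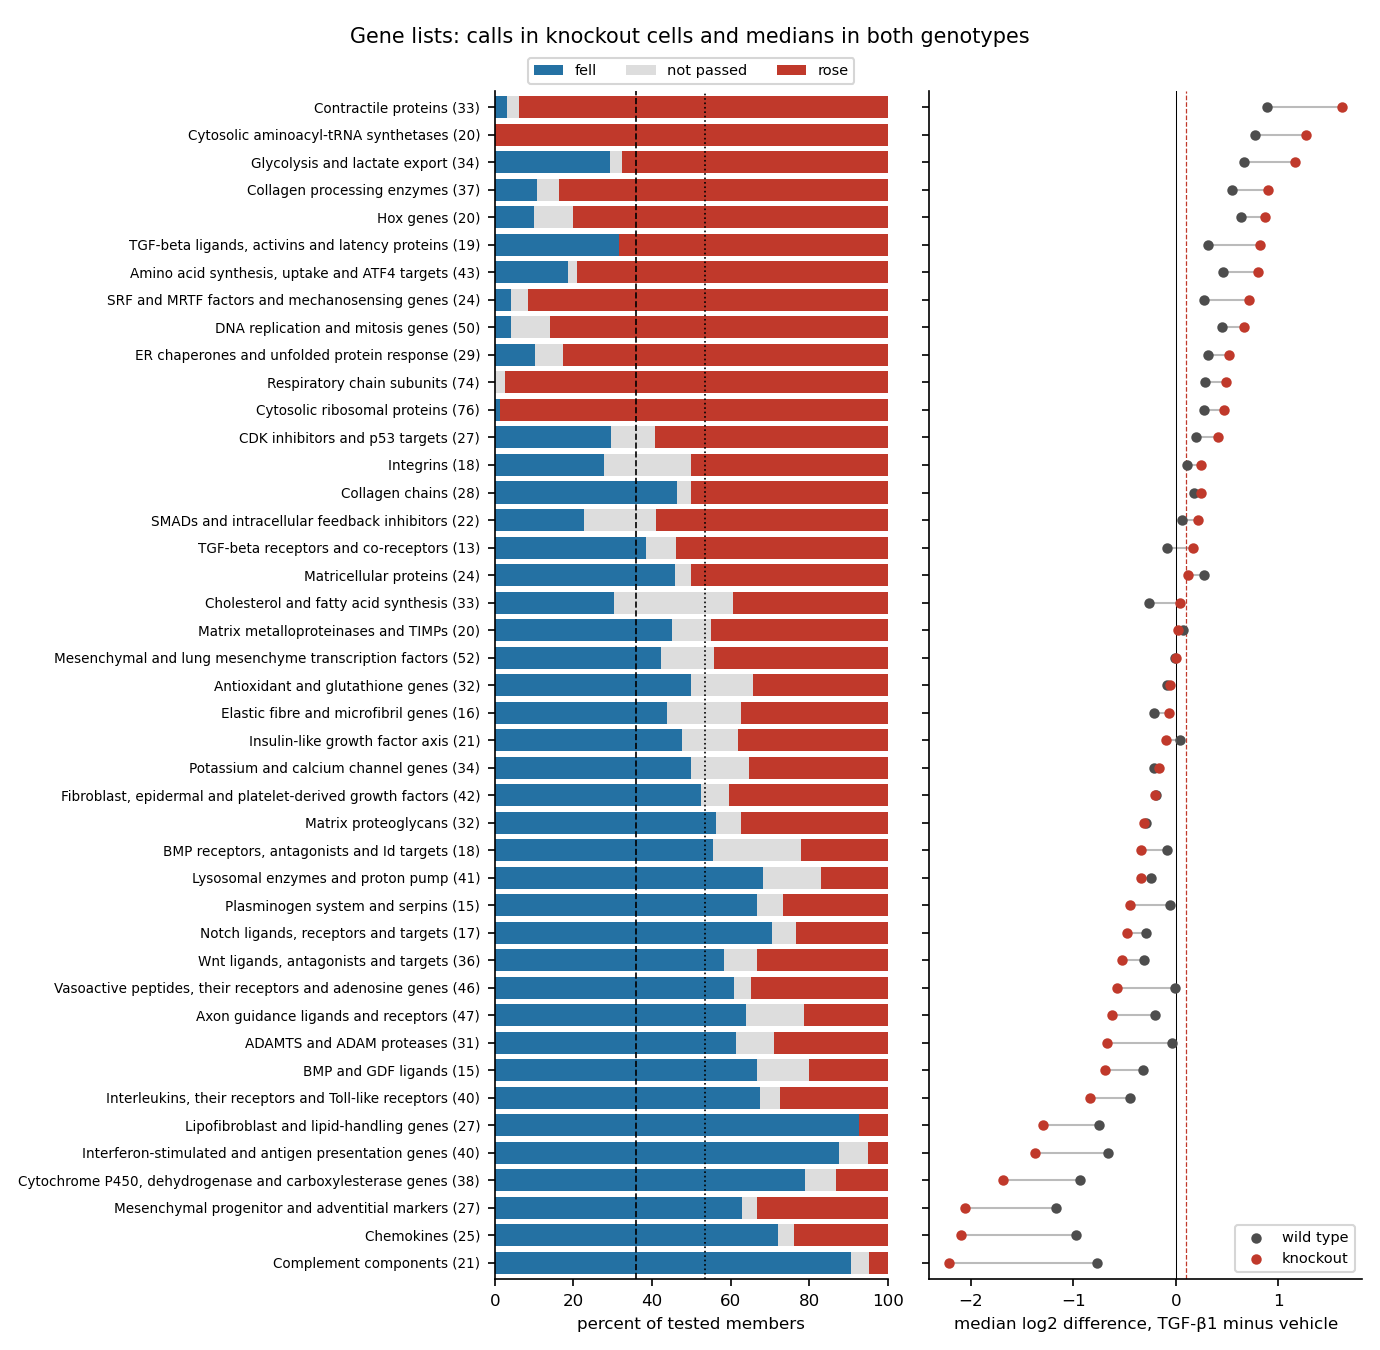
Left, percent of each list's tested members that fell, did not pass or rose with TGF-β1 in knockout cells, with the number tested in brackets, a dashed line at the 35.9% of all genes that fell and a dotted line that leaves the 46.6% of all genes that rose to its right. Right, median log2 difference of each list in knockout and wild type cells, with a dashed line at the median over all genes, 0.10, and contractile proteins and aminoacyl-tRNA synthetases at the top and chemokines and complement at the bottom.

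Genes of lipofibroblasts, the lipid-storing fibroblasts beside the alveoli, fell in 25 of 27, with a median of -1.29 against -0.75 in wild type cells. Fgf10, a growth factor that these cells send to the epithelium, read 9.92, 10.20, 10.07 and 10.05 with vehicle and 7.18, 7.26, 7.24 and 7.11 with TGF-β1. The groups did not overlap, and Fgf10 fell 7.27-fold, while its other probe gave a log2 difference of -1.61. The fat cell regulator Pparg (-1.76), the fatty acid carrier Cd36 (-3.14), lipoprotein lipase (-2.52 for Lpl), Limch1 (-3.11) and Inmt (at least 35.6-fold lower) fell too. Markers of progenitor and adventitial fibroblasts fell in 17 of 27 and rose in 9, with a median of -2.05 (-0.68 with normexp background correction). Ly6a, which encodes the stem cell antigen Sca-1, read 10.78, 10.87, 10.77 and 10.87 with vehicle and 4.79, 4.63, 5.11 and 5.20 with TGF-β1. Treated arrays stood far below the vehicle arrays, and Ly6a fell 59.4-fold (adjusted p = 3.11e-16), against -2.07 in wild type cells. Cd34 (-2.83), Pdgfra (-2.21), Dpp4 (-3.21), Clec3b (-3.27), Dpt (at least 17.9-fold lower) and the hedgehog target Gli1 (at least 3.97-fold lower) fell, and the mesenchymal stromal markers Nt5e (3.51) and Thy1 (1.79) and the intermediate filament gene Nes (1.90) rose.

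Transcription factors of mesenchyme went in both directions, 23 up and 22 down of 52 (21 and 25 with quantile normalization, under which the median turned from 0.0044 to -0.10). Sox11 (at least 27.8-fold higher), Foxs1 (1.97) and Runx1 (1.06) rose, and Osr2 (-4.49), -1.79 by its other probe, Meox2 (-2.75), Tcf21 (-0.89), which marks lipofibroblasts, and Tbx4 (-1.29), which marks lung mesenchyme, fell. Hox genes rose in 16 of 20 with a median of 0.87 (0.93 with quantile normalization), and the 2 that fell were Hoxd8 (-0.87) and Hoxd9, above background on no treated and 1 of 4 vehicle arrays, which has no fold and read a difference of 0.0074 with normexp background correction. The clusters also hold genes outside that list, and of all that were tested 8 of 9 HoxB genes, 4 of 4 HoxC genes and 6 of 8 HoxA genes rose, with Hoxb9 (at least 17.6-fold higher) and Hoxa4 (2.04) as examples. Over all genes 46.6% rose. Notch pathway genes fell in 12 of 17 (median -0.47), with Notch3 (-1.33) and Heyl (-0.68) down and the ligand Jag1 (1.92) and target Hes1 (1.78) up. Growth factor genes were split, with 17 rises and 22 falls of 42 (median -0.20). Fgf21 (2.85), Pdgfc (2.30) and Vegfa (1.59) rose, and Vegfd (-4.85), Kitl (-2.82), Hgf (-2.37) and Fgfr4 (at least 8.17-fold lower) fell.

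Genes of DNA replication and mitosis rose. Of 50 DNA replication and mitosis genes 43 rose and 2 fell, with a median of 0.66 and 0.45 in wild type cells. Aurka (1.60), Mybl2 (1.48), Tyms (1.41) and Cdk1 (1.20) were among the rises, and cyclin D1 (-1.19 for Ccnd1) was a fall. Among inhibitors of cyclin-dependent kinases and p53 targets 16 rose and 8 fell of 27, with a median of 0.41 (-0.04 over the members in the authors' deposited value table), and with quantile normalization 12 rose, 11 fell and the median was 0.12. Cdkn2b, the inhibitor p15 and a known TGF-β target, read 11.23, 11.32, 11.29 and 11.27 with vehicle and 12.88, 12.81, 12.84 and 12.94 with TGF-β1, without overlap. It rose by 1.59 ± 0.04, against 0.12 in wild type cells (interaction adjusted p = 9.3e-12). Cdkn2a (1.64) and Cdkn1a (0.94) rose too. The inhibitor p57, Cdkn1c, went from 13.26, 13.09, 13.09 and 13.12 to 7.09, 7.31, 7.32 and 7.24, far apart, and fell 59.6-fold, with -4.49 in wild type cells.

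Genes of vessel tone and cell guidance were mostly lower. Vasoactive peptides, their receptors and adenosine genes fell in 28 of 46 and rose in 16 (median -0.57). Endothelin 1 (3.26 for Edn1), the relaxin family receptor Rxfp3 (at least 19.4-fold higher), the adrenergic receptor Adra2a (4.18) and the adenosine receptor Adora1 (3.08) rose. The angiotensin receptors Agtr2 (at least 12.5-fold lower) and Agtr1a (-2.18), the endothelin receptors Ednrb (-3.46) and Ednra (-1.80), and the prostaglandin receptors Ptgir (-3.53), Ptger4 (-2.12) and Ptger2 (-1.71) fell. Axon guidance genes fell in 30 of 47 (median -0.62), with Sema5a (-3.21), Plxnc1 (-2.72) and Ephb1 (at least 11-fold lower) down and Ntn4 (2.47), Unc5b (2.24) and Sema4f (at least 3.93-fold higher) up. Potassium and calcium channel genes fell in 17 of 34 and rose in 12 (median -0.16), with Kcnd3 (-2.96) and Kcns3 (-2.84) down and Kcnj15 (2.10) and the touch channel Piezo2 (1.90) up.

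Several changes sat in families of neighbouring genes, which were grouped after their values were seen and whose close copies can share probe signal. Their counts stand beside 46.6% of all genes that rose and 35.9% that fell. All 8 Serpina3 genes tested, secreted protease inhibitors, fell, from Serpina3b (-1.56) to Serpina3n (-6.08). In the Ly6 cluster Ly6c1 (-5.31) and Ly6c2 (-5.60) fell beside Ly6a, and Ly6k (1.32) rose. All 6 genes of the CXC chemokine cluster fell, while in the CC cluster 8 of 10 fell and Ccl6 (0.44), -0.10 with quantile normalization, rose. Among 9 late cornified envelope genes, made in skin, 8 rose, with Lce1f (at least 7.47-fold higher), Lce1g (at least 3.14-fold higher) and Lce1i (at least 2.21-fold higher) coming from background. The other rises were small, from Lce1l (0.26) to Lce1c (0.68). In the Akr1c cluster of steroid and prostaglandin reductases 4 fell, among them Akr1c18 (-3.29), and Akr1c19 rose.

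The knockout response was then set against that of wild type cells through the interaction, the difference of the 2 differences. It passed for 8967 of 15394 genes (58.2%), with 4887 more positive in knockout cells (31.7%) and 4080 more negative (26.5%). The positive share was 54.5% of those, and 43.6% with quantile normalization. In wild type cells 10560 genes (68.6%) passed. Of 1472 genes with a fitted rise of at least 2-fold in knockout cells, the response was larger in knockout for 1242, smaller for 15 and not different by the test for 146, and for 69 the wild type value was opposite in sign. Of 2088 genes with such a fall, 1518 fell further in knockout, 50 less far and 391 did not differ by the test, and 129 had the opposite sign in wild type. For 179 of these rises and 656 of these falls a knockout group was not above background on all arrays. The size of those responses rests on values near background. Since these genes were chosen by their knockout values, genes chosen by wild type values are given too. Of 502 genes that rose at least 2-fold in wild type cells, the rise was larger in knockout for 323, smaller for 70 and undecided for 109, with medians of 1.40 in wild type and 2.01 in knockout. For 993 falls the numbers were 524, 128 and 341, with medians of -1.51 and -2.10.

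**Figure D4:**
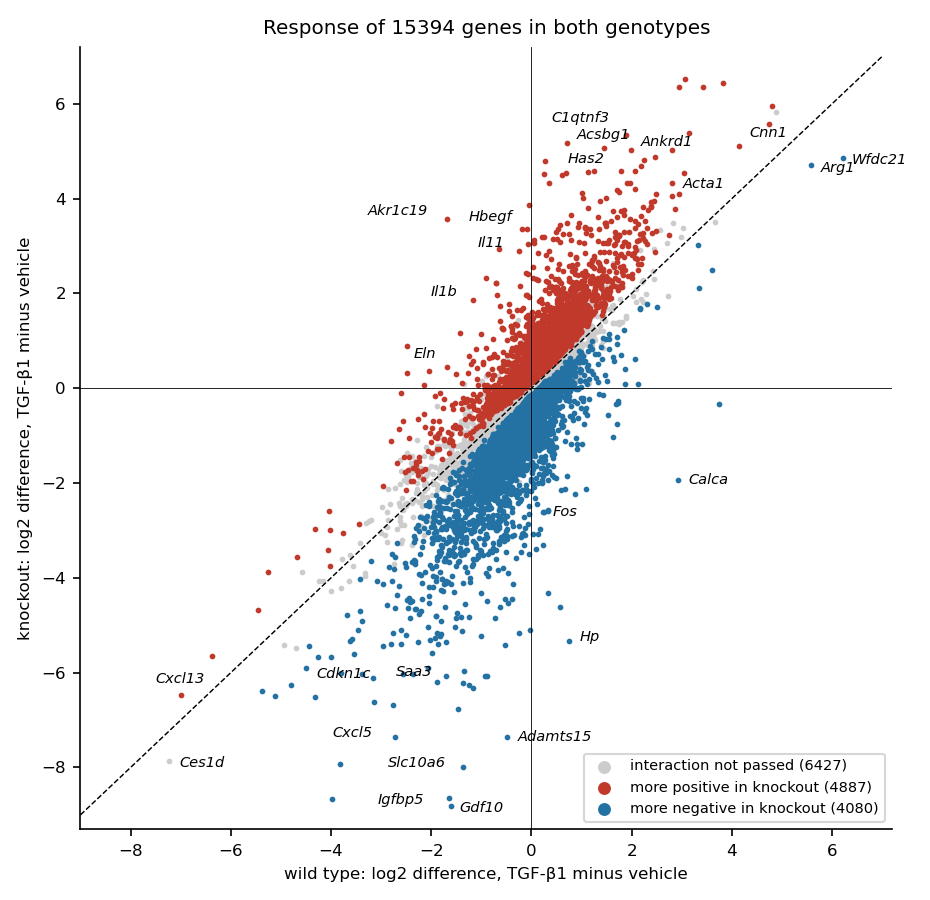
Log2 difference, TGF-β1 minus vehicle, in knockout cells against that in wild type cells for 15394 genes, with genes whose interaction passed in red (4887, more positive in knockout) and blue (4080, more negative) and a dashed line of equal response. Gdf10, Igfbp5, Adamts15 and Hp lie far below the line, Akr1c19, Hbegf and C1qtnf3 far above it, and Ces1d lies close to it.

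Genes whose responses were opposite, or absent in wild type cells, included growth factors and cytokines. Hbegf, a ligand of the epidermal growth factor receptor, read 9.10, 9.0, 9.04 and 9.10 with vehicle and 12.37, 12.31, 12.61 and 12.37 with TGF-β1 in knockout cells. All treated arrays stood above the vehicle arrays, a 10.2-fold rise. Wild type arrays of Hbegf read 9.14, 9.12, 9.27 and 9.20 with vehicle and 9.10, 9.01, 9.10 and 9.14 with TGF-β1, a difference of -0.09 that did not pass (adjusted p = 0.18), and the interaction was 3.45 ± 0.08 (adjusted p = 2.88e-13). Il11, a cytokine that acts on fibroblasts, read 9.70, 9.52, 9.47 and 9.57 with vehicle and 12.44, 12.22, 12.78 and 12.39 with TGF-β1 in knockout cells, with replicate 3 the highest treated array and no overlap. It rose 7.42-fold, against -0.25 in wild type cells (adjusted p = 0.1). Its relative Lif (2.22) rose in knockout and fell by 0.71 in wild type cells. Il1b, an inflammatory cytokine of dim signal here, read 5.09, 5.03, 4.69 and 4.67 with vehicle and 6.80, 6.66, 6.63 and 6.80 with TGF-β1 in knockout cells, where the groups did not overlap. Wild type arrays read 5.03, 5.75, 5.52 and 6.20 with vehicle and 3.92, 4.27, 4.79 and 4.83 with TGF-β1, where not all arrays were well above background, and the interaction was 3.03 ± 0.32 (adjusted p = 1.39e-06). Akr1c19 read 4.15, 3.99, 2.49 and 3.23 with vehicle, with 2 of 4 arrays at background, and 6.97, 6.75, 7.39 and 7.07 with TGF-β1, and rose at least 9.05-fold. In wild type cells it read 4.37, 3.80, 3.20 and 3.54 with vehicle and 1.56, 1.66, 2.49 and 2.48 with TGF-β1. There 2 of 4 vehicle arrays and no treated array were well above background, so the wild type difference has no fold. The growth factor Nrg1 (1.16), the Wnt ligand Wnt11 (1.13), the collagen chain Col5a3 (0.86) and the AP-1 gene Fosl1 (0.72) rose in knockout and fell in wild type cells, with differences there of -1.42, -0.30, -0.90 and -0.74.

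The reverse was seen for haptoglobin, Hp, an acute phase protein. Hp read 13.78, 13.92, 13.99 and 13.96 with vehicle and 8.45, 8.86, 8.41 and 8.62 with TGF-β1 in knockout cells, far apart, a 40.1-fold fall (adjusted p = 6.43e-17). In wild type cells it rose from 13.49, 13.48, 13.57 and 13.52 to 14.22, 14.28, 14.32 and 14.28, by 0.76. The immediate early gene Fos read 12.04, 12.30, 12.35 and 12.31 with vehicle and 9.62, 9.73, 9.56 and 9.64 with TGF-β1 in knockout cells, with replicate 1 the lowest vehicle array and no overlap, and fell by 2.62. It rose by 0.22 in wild type cells, where the arrays read 11.65, 11.50, 11.78 and 11.89 with vehicle and 11.87, 11.94, 11.95 and 11.95 with TGF-β1, and the interaction adjusted p was 2.9e-11. Egr1 (-1.53), another immediate early gene, fell in knockout and differed by 0.25 in wild type cells (adjusted p = 0.000165). Clusterin, Clu, a secreted chaperone, read 14.41, 14.40, 14.44 and 14.49 with vehicle and 12.65, 12.93, 12.80 and 12.85 with TGF-β1 in knockout cells, without overlap. It fell by 1.63 there and rose by 0.32 in wild type cells. Calca, which encodes calcitonin and its gene-related peptide, went from 4.19, 4.12, 3.14 and 3.87 to 1.80, 1.89, 1.94 and 1.98 in knockout cells, where no treated array and 3 of 4 vehicle arrays were above background, so that it fell (adjusted p = 3.91e-08) but has no fold, and it did not pass with normexp background correction (-0.10). It rose in wild type cells from 4.39, 4.59, 4.62 and 4.38 to 7.50, 7.37, 7.54 and 7.27, by 2.92. Angptl7 (-4.62), Wnt4 (-1.18), Ccn3 (-1.04), Il6st (-1.52), which encodes the shared receptor of the interleukin 6 family, and the chemokine Ccl4 (-2.59) also fell in knockout and rose in wild type cells, by 0.57, 0.90, 0.89, 0.27 and 0.34. Other genes responded less in knockout cells. Of the genes chosen by wild type values, these were 70 of 502 rises and 128 of 993 falls. Arg1 (4.70) was among them, against 5.57 in wild type cells.

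**Figure D5:**
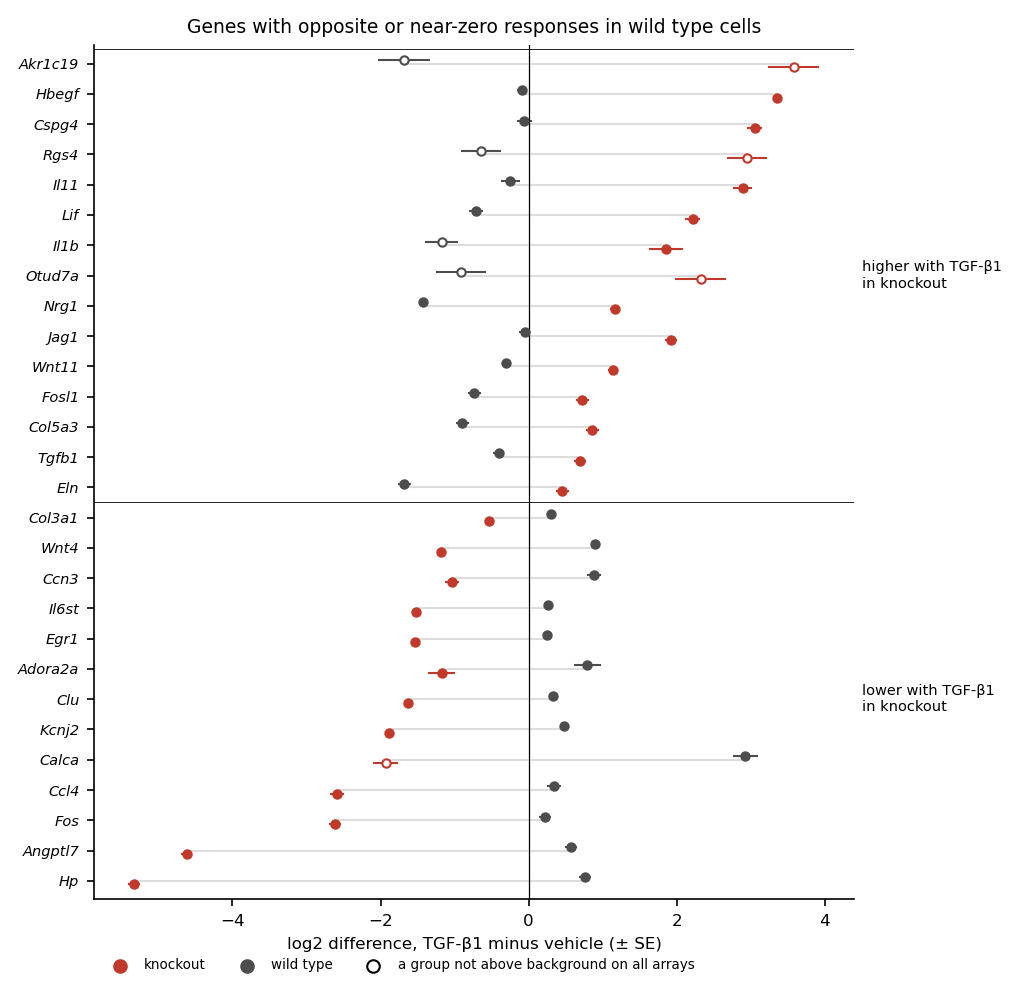
Log2 difference, TGF-β1 minus vehicle, with standard errors of the limma fit over 16 arrays, for 28 genes whose wild type response (grey) was opposite to or near 0 beside the knockout response (red), and open symbols where some array of a group lacked signal above background. Hp, Angptl7 and Fos were lower with TGF-β1 in knockout and slightly higher in wild type cells, and Eln, Nrg1 and Lif were higher in knockout and lower in wild type cells.

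Promoters of the genes that moved most differed in base composition from those of all genes. The median number of CpG dinucleotides in the 250 bases before the start was 14 over all tested genes, 10 for genes that rose at least 4-fold and 6 for those that fell at least 4-fold, with GC contents of 58.8%, 58% and 55.6%. The string TATAAA was in 7.8%, 15% and 10.8% of these promoters, and TGANTCA, which AP-1 factors bind, in 4.87%, 10.6% and 8.54%. Both strands were read, and these shares are descriptions without a test.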

How the data were processed

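RNA of 16 cultures was hybridised with Cy3 to 1-colour Agilent mouse arrays, 4 a group, with replicates 1 and 2 of each group on slide 1 and replicates 3 and 4 on slide 2. The authors deposited scanner files of Agilent Feature Extraction 11.0.1.1, whose processed spot intensity is background-subtracted and spatially detrended, per the file headers. They also deposited a matrix of 9933 probes on a log2 scale, whose normalization is not given in the sources used here. Set against log2 of the processed intensity it gave r of at least 0.999, with column medians of 6.38 to 6.615, and it was used as an alternative. From the intensities, log2 values were shifted per array to a common 75th percentile, and 27 probes marked as outliers were left out. Of 56605 probes 33888 had signal well above background throughout 1 or more of the 4 groups. The brightest probe stood for each of 15394 genes named in the files, of which 5763 had several probes, and 11179 kept probes had no gene name.

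All 16 arrays entered a single limma 3.58.1 fit (R 4.3.3, Python 3.11.15, pandas 2.3.3, numpy 2.4.6) with a mean per group. The fit was also run on simulated arrays with few genes changed, equal spread in all groups and no array shift. Most genes passed in the real data, so that run cannot show how the fit performs here, and no conclusion is drawn from it. Array precision is limited by the 4 cultures of a group. For bounds, a group not well above background on all 4 arrays was set per array to the higher of its own signal and the lowest signal of any probe well above background. Correlations of deviations from group means between arrays of the same replicate number were 0.0863, -0.0219, 0.0958 and 0.1052, so the numbers were not used as pairs. Genes named were the 25 largest rises and falls, the 12 largest interactions of each sign and 6 per list. The 25 rises and 25 falls were taken only from genes that passed and whose 2 knockout groups did not overlap. For those genes the lack of overlap was set by that choice and adds no evidence. Further list members, family clusters and genes with opposite responses were named after their values were seen. The 43 gene lists, 7 marker lists and the members themselves were chosen with earlier results of these data known.

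Promoters are RefSeq's on GRCm38.p6, in the 250 bases before the start, and 12174 genes matched by symbol. The CArG box and the nuclear factor kappa B site were searched by their consensus, the other strings as spelled, on both strands, and overlapping matches were counted once per promoter. Alternatives were quantile normalization, normexp background correction with an offset of 50, the deposited value table, other filters and probe rules, slide or replicate blocks, each slide alone and single arrays left out. A few genes are not reported here.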

Additional observations from a re-analysis of the deposited data

Results flagged for a closer look

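On 8 of 98 groups of 4 arrays checked, over 47 genes and the array scale, the highest or lowest array stood apart from the other 3, where chance alone gives about 1 in 20. With TGF-β1, replicate 2 was low for Acta1 (14.34) and Cxcl1 (4.51), and replicate 3 was high for Tgfb1 (10.30) and Smad3 (11.77). With vehicle, replicate 1 was low for Bmp4 (12.81), Saa3 (16.57) and Fos (12.04), and replicate 4 had the highest 75th percentile intensity (518.9). The knockout groups did not overlap for any of these 7 genes, and they did not for 77.1% of all genes tested. Acta1, Cxcl1 and Saa3 were also named under a rule that asked for no overlap.

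The response to TGF-β1 differed between genotypes for 8967 genes by the interaction. The differences of the fitted responses, knockout minus wild type, that were most positive among genes with a standard symbol were those of Akr1c19 (5.26), the chemokine Ccl17 (4.53), Acsbg1 (4.46), Lce1f (3.97), the galactosyltransferase B3galt5 (3.92), the leucine-rich repeat gene Lrrc15 (3.84), the small heat shock gene Hspb3 (3.62), the G protein regulator Rgs4 (3.59), Calr4 (3.54), C1qtnf3 (3.45), Acan (3.45) and Hbegf (3.45). The most negative were those of Gdf10 (-7.20), Igfbp5 (-7.00), Adamts15 (-6.87), Slc10a6 (-6.63), Hp (-6.08), Chl1 (-5.29), Krtap11-1 (-5.20), Angptl7 (-5.19), Serpina3n (-5.16), Abi3bp (-5.15), Serpina3i (-5.06) and the macrophage lectin Clec10a (-5.01). Genes among them with a group at background have no bound on these differences.

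Probes whose systematic name matched no RefSeq transcript have no gene name here and are in no comparison above. Of 11179 such probes well above background in a group, 8128 (72.7%) passed in knockout cells, with 3575 higher and 4553 lower, against 82.5% of named genes.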

How the results depend on the processing

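In the authors' deposited value table, which holds 5255 of the genes, 4841 passed in knockout cells, 4376 in wild type cells and 3827 by the interaction, each from fewer genes. With slide 1 alone, at 2 arrays a group, the interaction passed for 5615 genes. The counts stayed within 1.5 times in every other setting tried. Leaving out single arrays gave 12396 to 12553 genes for knockout cells, 8613 to 9050 for the interaction and 10116 to 10338 for wild type cells, and without a filter on dim probes 15440 of 22906 genes passed in knockout cells. The replicate number as a block gave 12842, 9308 and 10791 genes for knockout cells, the interaction and wild type cells, and of the 4 numbers 3 and 4 had arrays that matched their own number best. The difference in Islr between knockout and wild type vehicle cultures, -9.37, passed in every setting.

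Of 465 named genes 451 kept their direction and side of the threshold in every setting. With quantile normalization the differences of Ccl6 (-0.10), Fhl1 (-0.52) and Wwtr1 (-0.37) turned negative, and with normexp background correction those of Hoxd9 (0.0074) and Jag2 (0.0168) came to about 0. Another 9 genes lost the threshold in some setting, among them Tgfbr1, Cxcl2 and Calca. The cause was not tested. The medians of 7 of 50 gene and marker lists changed sign with quantile normalization, as given beside them. With normexp background correction the medians of lists that fell were mostly less deep, as for interferon (-0.85) and lipofibroblast (-0.86) genes. Of the list medians compared over all settings, 183 moved beyond their spread between arrays and 816 did not. The number of arrays and the dim signal of genes at background limit the values, and for the 519 genes that fell to background only a bound of the fall is known.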

Other observations

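Among the largest changes in knockout cells that belong to no list were both immune and stromal genes. The interferon-induced membrane gene Ifitm1 (at least 69.3-fold lower), the myeloid lectin genes Clec4a1 (at least 42.3-fold lower) and Clec10a (at least 18.4-fold lower), the matrix-associated genes Olfml1 (at least 41.5-fold lower) and Abi3bp (at least 26.2-fold lower) and the amino acid transporter Slc36a2 (-5.39) fell. Their wild type differences were -3.16, -1.87, -1.24, -1.89, -1.17 and -2.61. The whey acidic protein gene Wfdc21 (at least 28.8-fold higher) rose, and in wild type cells its difference was 6.22. Prss46 (4.33), a serine protease gene, and Tmem59l (4.20) rose as well, against 1.90 and 2.08 in wild type cells.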
